A study of Arabidopsis thaliana with 30 samples.

Results

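The genes described here are 5 genes of Arabidopsis that answer to a shortage of sugar or take part in the breakdown of branched-chain amino acids. They are AT3G15450, also called SEN5, its family member AT4G27450, AKINBETA1, IVD and MCCB. They were chosen by name, with earlier results of these data known. Each was read by 1 probe set that matches no further gene, so that 5 of 22746 probe sets, or 5 of 13356 genes that can be named, are followed. The arrays measured RNA of rosette leaves from plants of 2 genotypes, the catalase mutant cat2 (cat2-1 in the study's design) and its wild type Col-0. All plants first grew for 5 weeks in soil at 3000 ppm CO2 in short days of 8 h light. Plants were then moved to air at 400 ppm CO2 in long days of 16 h light for 4 days (LD4) or 2 days (LD2), or to air in short days for 4 days (SD4) or 2 days (SD2), or were sampled at 3000 ppm CO2 without a transfer (hCO2). These 5 conditions in 2 genotypes made 10 groups of 3 arrays, each array a pool of 2 leaves from different plants, and every harvest fell 7 h into the light. No plants were kept in long days at 3000 ppm CO2, so LD4 and LD2 differ from hCO2 in both CO2 and day length, and those 2 changes cannot be told apart there. For Col-0 at hCO2 the label of the treatment reads 300 ppm, which was taken as the 3000 ppm that the growth protocol states.

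Plant cells sense a shortage of carbon through SnRK1, a protein kinase made of a catalytic alpha subunit with beta and gamma subunits, and AKINBETA1 is one of its beta subunits. When sugar runs low, leaves raise a set of starvation genes, among them SEN5 (first described as a senescence-associated transcript), and turn to protein and amino acids as fuel. Leucine, isoleucine and valine are then broken down in mitochondria. In the leucine branch isovaleryl-CoA dehydrogenase (IVD) hands electrons to the respiratory chain through the electron transfer flavoprotein, and the next enzyme, 3-methylcrotonyl-CoA carboxylase, is built from an alpha subunit (MCCA) and a beta subunit (MCCB). Catalase 2 removes hydrogen peroxide made by photorespiration, a process that high CO2 keeps low.

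The values are log2 signals normalized by RMA, which can be set against each other between arrays for 1 gene but not between genes. Arrays of the same group correlated at 0.9845 to 0.9965 over all probe sets, and array medians lay between 6.151 and 6.295. CAT2 itself has no single-gene probe set in the annotation used, so the genotype labels were not checked on it. Of the marker genes listed for leaf and other cell types, RCA, SWEET11 (a sugar exporter of phloem cells), FMA (a regulator of guard cell formation) and WRKY53 (a senescence regulator) could be read on single-gene probe sets. RCA, the activase of the carbon-fixing enzyme Rubisco, lay between 13.87 and 14.20 on all arrays. In bulk leaf RNA, a change in the cells that express a gene and a change of RNA per cell cannot be told apart. A difference counts as called at an adjusted p below 0.05, from limma with the Benjamini-Hochberg adjustment over all 22746 probe sets of that comparison. Overlap of arrays between groups is given only to describe the values. The share of all probe sets without such overlap was not counted for any comparison.

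AT3G15450 (probe set 258402_at) was high in long days and, in cat2, after 2 short days. At LD4 its log2 signals were 10.08, 10.46 and 10.84 in cat2 and 10.62, 9.89 and 11.12 in Col-0. At LD2 they were 9.86, 9.81 and 9.77 in cat2 and 9.31, 9.56 and 9.74 in Col-0. Every long-day array therefore stood above 9.3, and the genotypes overlapped at day 4. The 3 cat2 LD2 arrays stood just above the 3 Col-0 ones, and limma did not call that difference (0.28 ± 0.22, adjusted p 0.712). At SD4 the signals were 8.03, 8.40 and 8.54 in cat2 and 8.38, 8.06 and 8.17 in Col-0. At SD2 they were 9.27, 9.68 and 9.56 in cat2 and 8.22, 8.64 and 8.24 in Col-0. At hCO2 they were 8.79, 8.64 and 8.52 in cat2 and 8.12, 8.41 and 7.98 in Col-0. The 3 cat2 SD2 arrays stood above all the other short-day and hCO2 arrays. The 3 cat2 hCO2 arrays stood just above the 3 Col-0 ones, a difference that was not called.

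Of the 5 genes, AT4G27450 (253874_at) spanned the widest range of group means and also scattered most between arrays. At LD4 its log2 signals were 8.42, 8.21 and 9.03 in cat2 and 8.90, 7.80 and 9.87 in Col-0. At LD2 they were 7.14, 6.81 and 8.17 in cat2 and 7.69, 6.96 and 7.43 in Col-0. The genotypes overlapped in both long-day conditions. At SD4 the signals were 6.28, 7.44 and 5.67 in cat2 and 6.18, 6.73 and 5.40 in Col-0. At SD2 they were 5.71, 6.24 and 6.19 in cat2 and 5.81, 6.22 and 5.49 in Col-0. At hCO2 they were 5.54, 5.42 and 6.25 in cat2 and 5.75, 5.58 and 5.67 in Col-0. All short-day and hCO2 groups overlapped with one another, and 1 cat2 SD4 array reached into the range of the LD2 arrays. The SD pooled within groups was 0.60 on the log2 scale, larger than that of 99.2% of all probe sets. It was 0.29 for AT3G15450 (larger than 91.06%), 0.27 for IVD (89.31%) and 0.18 each for AKINBETA1 (69.37%) and MCCB (69.74%).

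AKINBETA1 (246028_at) showed the same rise in long days with less scatter than AT3G15450 and AT4G27450. At LD4 its log2 signals were 8.44, 8.27 and 8.35 in cat2 and 8.43, 7.90 and 8.44 in Col-0. At LD2 they were 7.74, 7.79 and 7.66 in cat2 and 7.86, 7.87 and 7.84 in Col-0. All LD4 arrays were above all LD2 arrays in each genotype, and the 3 Col-0 LD2 arrays were above the 3 cat2 ones. At SD4 the signals were 6.93, 7.52 and 7.38 in cat2 and 6.83, 7.08 and 7.04 in Col-0. At SD2 they were 7.35, 7.65 and 7.38 in cat2 and 7.09, 7.26 and 6.95 in Col-0. At hCO2 they were 6.66, 6.90 and 6.99 in cat2 and 6.76, 6.98 and 6.65 in Col-0. In short days the genotypes overlapped at day 4, and at day 2 the cat2 arrays lay above the Col-0 arrays. The genotype differences at LD2 and SD2 were not called.

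IVD (252570_at) and MCCB (253279_at), the enzymes of leucine breakdown, moved over a narrow range: IVD lay between 6.60 and 7.81 and MCCB between 8.29 and 9.07 over all 30 arrays. At SD2, where cat2 and Col-0 stood furthest apart, the log2 signals of IVD were 7.81, 7.63 and 7.32 in cat2 and 6.85, 6.62 and 7.28 in Col-0. Those of MCCB were 8.85, 8.53 and 8.72 in cat2 and 8.34, 8.29 and 8.34 in Col-0. Neither gene's genotypes overlapped at SD2, although the IVD ranges came close and the MCCB difference was not called. At LD2 the signals of IVD were 7.10, 6.60 and 7.16 in cat2 and 7.41, 7.11 and 6.90 in Col-0. At LD4 those of MCCB were 8.60, 8.79 and 8.94 in cat2 and 8.32, 9.07 and 9.07 in Col-0. The genotypes overlapped in both of these, and in MCCB the first Col-0 LD4 array stood below the other two of its group. In the other groups, IVD averaged 7.31 ± 0.26 in cat2 and 7.31 ± 0.11 in Col-0 at LD4, 7.30 ± 0.30 in cat2 and 7.13 ± 0.24 in Col-0 at SD4, and 7.13 ± 0.40 in cat2 and 7.07 ± 0.15 in Col-0 at hCO2 (SD, n = 3 each). MCCB averaged 8.52 ± 0.13 in cat2 and 8.62 ± 0.04 in Col-0 at LD2, 8.52 ± 0.16 in cat2 and 8.59 ± 0.13 in Col-0 at SD4, and 8.73 ± 0.11 in cat2 and 8.70 ± 0.14 in Col-0 at hCO2 (SD, n = 3 each).

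**Figure D1:**
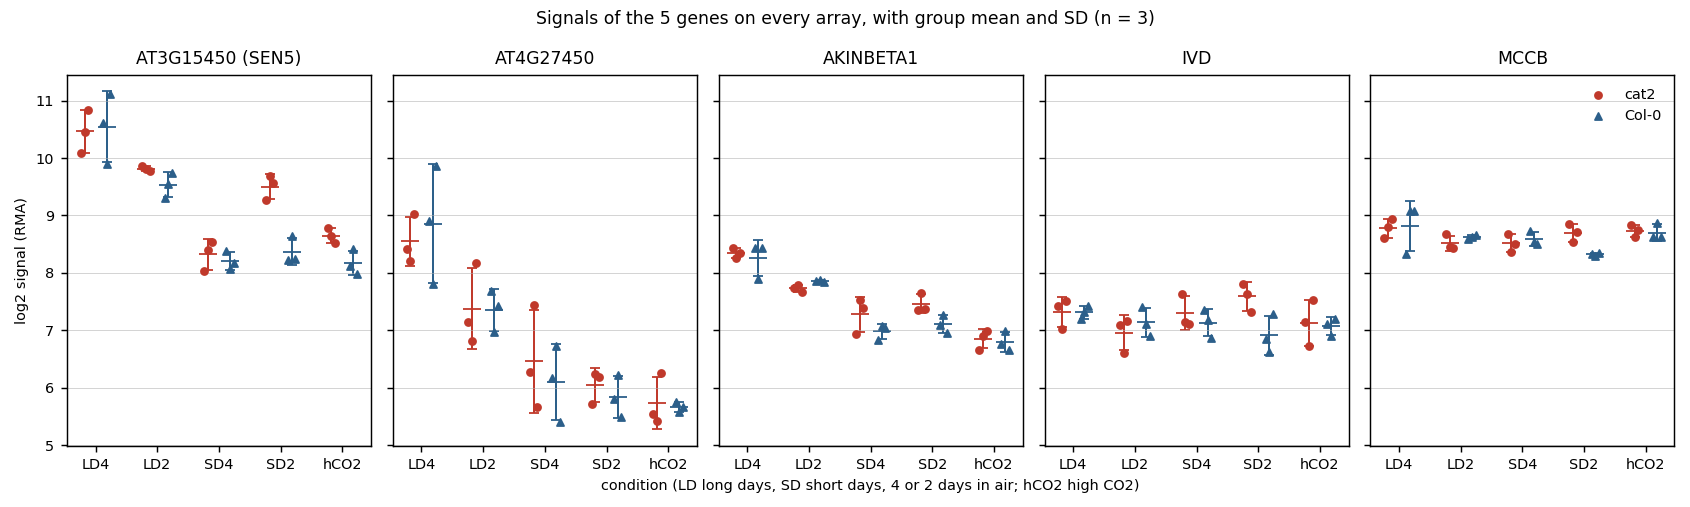
Log2 signals (vertical axis) of the 5 genes on each of the 30 arrays by condition, with circles for cat2, triangles for Col-0, and the group mean with its SD (n = 3). AT3G15450, AT4G27450 and AKINBETA1 stand highest at LD4 in both genotypes, AT3G15450 is also high in cat2 at SD2, and IVD and MCCB stay within narrow ranges.

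The first question was how the genes answered to the move from 3000 ppm CO2 to air. In long days the 3 starvation-related genes rose and the 2 leucine genes did not pass the test, in both genotypes and on both days. At LD4 against hCO2, AT4G27450 rose by 2.81 ± 0.45 (log2 difference ± SE, 7.03-fold) in cat2, with an adjusted p of 0.000138, and by 3.19 ± 0.45 (9.12-fold) in Col-0, with an adjusted p of 3.11e-05. AT3G15450 rose by 1.81 ± 0.22 (3.52-fold, adjusted p 5.42e-06) in cat2 and by 2.37 ± 0.22 (5.17-fold, adjusted p 1.78e-07) in Col-0. AKINBETA1 rose by 1.50 ± 0.14 (2.83-fold, adjusted p 2.08e-07) in cat2 and by 1.46 ± 0.14 (2.75-fold, adjusted p 3.66e-07) in Col-0. So 3 of 5 genes were called in each genotype, where 14.7% of all probe sets were called in cat2 and 16.3% in Col-0, and the median difference of the 5 was 1.50 in cat2 and 1.46 in Col-0, beside 0.0087 and 0.0041 over all probe sets. IVD differed by 0.19 ± 0.21 in cat2 and 0.24 ± 0.21 in Col-0, and MCCB by 0.04 ± 0.14 in cat2 and 0.12 ± 0.14 in Col-0. Without the first Col-0 LD4 array, MCCB rose in Col-0 by 0.37 with an adjusted p of 0.0382.

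After 2 long days the same 3 of 5 genes were called in each genotype, with smaller differences than at day 4, against a background of 20.2% of probe sets in cat2 and 11.5% in Col-0. AT3G15450 rose by 1.16 ± 0.22 (adjusted p 0.000708) in cat2 and by 1.36 ± 0.22 (adjusted p 0.000343) in Col-0. AKINBETA1 rose by 0.88 ± 0.14 (adjusted p 0.000149) in cat2 and by 1.06 ± 0.14 (adjusted p 4.12e-05) in Col-0. AT4G27450 rose by 1.64 ± 0.45 (adjusted p 0.0121) in cat2 and by 1.69 ± 0.45 (adjusted p 0.017) in Col-0, and these were the calls that hung on single arrays. In cat2 the adjusted p of AT4G27450 was 0.0928 without LD2 replicate 3, 0.0513 without hCO2 replicate 1 and 0.0552 without hCO2 replicate 2. In Col-0 it was 0.0753 without LD2 replicate 1, 0.0521 without LD2 replicate 3 and 0.0644 without hCO2 replicate 2. Of the 4 marker genes, FMA fell in cat2 at LD2 by 0.43 ± 0.15 (adjusted p 0.0429), a call lost without LD2 replicate 1 or 3 (0.118 and 0.143) or hCO2 replicate 1 or 2 (0.129 and 0.217), and its part in these results was not tested.

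In short days, where only the CO2 level was changed beside the time of harvest, a response was called in cat2 at day 2. At SD2 against hCO2 in cat2, AT3G15450 rose by 0.86 ± 0.22 (1.81-fold, adjusted p 0.0082) and AKINBETA1 by 0.61 ± 0.14 (1.52-fold, adjusted p 0.00397), so that 2 of 5 genes were called where 17.7% of all probe sets were. In the same comparison the markers SWEET11 and FMA fell, SWEET11 by 0.47 ± 0.14 (adjusted p 0.0235) and FMA by 0.51 ± 0.15 (adjusted p 0.0179), and their part in the rise of the genes was not tested. SWEET11 ranged from 10.76 to 11.04 in cat2 at SD2, against 11.17 to 11.75 in cat2 at hCO2, and FMA from 6.61 to 6.94 against 7.02 to 7.59. The SWEET11 call was lost without cat2 SD2 replicate 1 (0.121) or hCO2 replicate 3 (0.152), and the FMA call without SD2 replicate 1 (0.109) or hCO2 replicate 1 or 2 (0.069 and 0.14). IVD differed by 0.46 ± 0.21 with an adjusted p of 0.139, and by 0.66 with an adjusted p of 0.0327 without cat2 hCO2 replicate 3. In Col-0 at SD2, 0 of 5 genes were called by limma although 20.0% of probe sets were. An unadjusted p below 0.05 was found for 2 of the 5, and for 7283 of all 22746 probe sets. The 2 genes were AKINBETA1, with a difference of 0.30 ± 0.14, and MCCB, with -0.38 ± 0.14 and an adjusted p of 0.0676. In a fit of only those arrays, MCCB fell with an adjusted p of 0.0339. SWEET11 fell in Col-0 at SD2 as well, by 0.68 ± 0.14 (adjusted p 0.00219), and so did FMA by 0.46 ± 0.15 (adjusted p 0.0323) and RCA by 0.16 ± 0.06 (adjusted p 0.0442). The FMA and RCA calls were each lost without any 1 of 5 of the 6 arrays, at adjusted p up to 0.112 for FMA and 0.173 for RCA. At SD4 0 of 5 genes were called in either genotype, with 12.4% of probe sets called in cat2 and 2.55% in Col-0. There 1 of the 5 had an unadjusted p below 0.05 in cat2 and 0 in Col-0, beside 5768 and 3317 of all probe sets. That gene was AKINBETA1 in cat2, with a difference of 0.43 ± 0.14, and it was called without cat2 SD4 replicate 1 (adjusted p 0.00836) or without cat2 hCO2 replicate 3 (adjusted p 0.0366). Markers fell at SD4 too. SWEET11 fell by 0.44 ± 0.14 in cat2 (adjusted p 0.0461) and by 0.58 ± 0.14 in Col-0 (adjusted p 0.0286). FMA fell by 0.47 ± 0.15 in cat2 (adjusted p 0.0418). Each of these marker calls was lost without single arrays.

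Whether the 2 genotypes answered differently to air was asked with an interaction term, the air response in cat2 minus that in Col-0. limma called 0 of 5 genes in each of the 4 interactions, and the share of all probe sets called was 0.123% at LD4, 0.185% at LD2, 0.892% at SD4 and 6.01% at SD2. Unadjusted p values below 0.05 were found for 2 genes at SD2 and for 0 genes at LD4, LD2 and SD4. Of all 22746 probe sets, 4641 had such a p at SD2. At SD2 the interaction was 0.66 ± 0.31 for AT3G15450 and 0.62 ± 0.30 for IVD, each with an adjusted p of 0.235. The rise of AT3G15450 in cat2 at SD2 was thus not shown to differ from the response in Col-0 by this term.

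Set directly against each other, cat2 and Col-0 differed at SD2 in 2 of the 5 genes. There AT3G15450 was higher in cat2 by 1.14 ± 0.22 (2.20-fold), with an adjusted p of 0.00113, and in 3 of 3 cat2 arrays it lay above every Col-0 array. IVD was higher in cat2 by 0.67 ± 0.21 (1.60-fold), with an adjusted p of 0.0332. That call was lost without any of 4 arrays: the adjusted p was 0.156 without cat2 replicate 1, 0.093 without cat2 replicate 2, 0.0878 without Col-0 replicate 1 and 0.174 without Col-0 replicate 2. AKINBETA1 differed by 0.36 ± 0.14 with an adjusted p of 0.0968, MCCB by 0.38 ± 0.14 with an adjusted p of 0.0833, and AT4G27450 by 0.21 ± 0.45. The 2 calls among 5 stand beside 14.2% of all probe sets at SD2, and the median difference of the 5 was 0.38 beside -0.04 over all probe sets. In a fit of only the SD2 arrays MCCB was also higher in cat2, with an adjusted p of 0.0354.

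In the other conditions limma called 0 of 5 genes between cat2 and Col-0. The background was 0.725% of probe sets at LD4, 1.15% at LD2, 1.69% at SD4 and 0.0132% at hCO2. At an unadjusted p below 0.05 there were 1913 of all probe sets at SD4 and 1531 at hCO2. Of the 5 genes there were 0 at LD4 and LD2 and 1 gene each at SD4 and hCO2. At hCO2 that gene was AT3G15450, with a difference of 0.48 ± 0.22 before any transfer and no overlap between the genotypes, and at SD4 it was AKINBETA1, with a difference of 0.30 ± 0.14. The tests of whether the genotype difference at SD2 exceeded that at hCO2, LD2 or SD4 called 0 of the 5 genes in the fit of all arrays; for the SD4 case, adjusted p was 0.163 for AT3G15450 and 0.443 for IVD. At LD4, where the genes stood highest, the differences between cat2 and Col-0 were -0.08 ± 0.22 for AT3G15450, -0.31 ± 0.45 for AT4G27450 and 0.10 ± 0.14 for AKINBETA1. The 25S rRNA control probe set moved with genotype in air: at SD2 it lay between 6.96 and 8.09 in cat2 and between 6.24 and 7.13 in Col-0, and its part in the genotype differences was not tested. The marker genes did not pass the test at SD2, with RCA differing by 0.14 ± 0.06, SWEET11 by 0.19 ± 0.14, FMA by 0.23 ± 0.15 and WRKY53 by -0.10 ± 0.48.

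Day length separated the starvation-related genes in both genotypes at day 4. There, where CO2 was the same in both groups, LD4 stood above SD4 by 2.14 ± 0.22 (4.41-fold, adjusted p 2.18e-07) for AT3G15450 in cat2 and by 2.34 ± 0.22 (5.06-fold, adjusted p 1.29e-07) in Col-0. AT4G27450 was higher by 2.09 ± 0.45 (4.25-fold, adjusted p 0.00233) in cat2 and by 2.75 ± 0.45 (6.75-fold, adjusted p 0.000155) in Col-0. AKINBETA1 was higher by 1.07 ± 0.14 (2.10-fold, adjusted p 8.23e-06) in cat2 and by 1.27 ± 0.14 (2.42-fold, adjusted p 1.36e-06) in Col-0. The LD4 and SD4 arrays of these 3 genes did not overlap in either genotype, and leaving out single arrays ended none of the 6 calls. How many of all probe sets were likewise without overlap was not counted. A control also differed in Col-0, the log2 signal of the actin 3' probe set minus that of the 5' one. It ran from 0.92 to 1.11 at LD4 and from 0.80 to 0.85 at SD4. In cat2 its ranges overlapped, as did those of the same GAPDH control in both genotypes. The part of the actin control in the day length result was not tested. Of all probe sets 11.8% were called in cat2 and 13.5% in Col-0. IVD differed by 0.02 ± 0.21 in cat2 and 0.18 ± 0.21 in Col-0, and MCCB by 0.26 ± 0.14 in cat2 and 0.23 ± 0.14 in Col-0. Without Col-0 LD4 replicate 1, MCCB was higher at LD4 by 0.48, with an adjusted p of 0.00741. SWEET11 was also higher at LD4 than at SD4, by 0.56 ± 0.14 in cat2 (adjusted p 0.00945) and by 0.44 ± 0.14 in Col-0 (adjusted p 0.0415). The cat2 call was lost without LD4 replicate 1 (0.054), and the Col-0 call without LD4 replicate 2 or 3 (0.126 and 0.167) or SD4 replicate 1 or 3 (0.198 and 0.0986). It was the 1 phloem marker measured of 5 listed, with a range of 11.00 to 11.66 over the LD4 arrays of both genotypes and 10.63 to 11.04 over the SD4 arrays, and its part in the day length result was not tested.

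At day 2 the genotypes gave different lists. In Col-0, LD2 stood above SD2 by 1.17 ± 0.22 (adjusted p 0.000801) for AT3G15450, by 0.76 ± 0.14 (adjusted p 0.000744) for AKINBETA1 and by 1.52 ± 0.45 (adjusted p 0.0282) for AT4G27450, 3 of 5 genes beside 11.8% of probe sets. MCCB, with a difference of 0.30 ± 0.14 in Col-0, passed in a fit of only those arrays (adjusted p 0.0362). SWEET11 was higher at LD2 than at SD2 too, by 0.67 ± 0.14 in Col-0 (adjusted p 0.00252), where it ranged from 11.32 to 11.54 at LD2 and from 10.64 to 10.91 at SD2, and with a difference of 0.36 ± 0.14 in cat2 (adjusted p 0.0959); its part in the day 2 result was not tested. In cat2, where AT3G15450 and AKINBETA1 were already up at SD2, their differences were 0.31 ± 0.22 and 0.27 ± 0.14 and did not pass the test, with no overlap between the LD2 and SD2 arrays of either gene. AT4G27450 was higher at LD2 in cat2 by 1.33 ± 0.45 (adjusted p 0.0455), and IVD was lower by -0.64 ± 0.21 (0.644-fold, adjusted p 0.0386), 2 of 5 genes beside 16.1% of probe sets. These calls at day 2 were fragile in cat2. For AT4G27450 the adjusted p was 0.172, 0.0767 and 0.0703 without cat2 SD2 replicate 1, 2 or 3, and 0.0636 and 0.246 without cat2 LD2 replicate 1 or 3. For IVD it was 0.177 and 0.105 without cat2 SD2 replicate 1 or 2, and 0.217 without cat2 LD2 replicate 2. In Col-0 the call of AT4G27450 was lost as well, with adjusted p of 0.0734 and 0.115 without SD2 replicate 1 or 3 and of 0.124 and 0.0732 without LD2 replicate 1 or 3.

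The difference between genotypes in the day length response was tested as an interaction. At day 2, limma called 0 of 5 genes where 7.72% of probe sets were called. An unadjusted p below 0.05 was found for 4 of the 5 and for 4917 of all 22746 probe sets. The values were -0.86 ± 0.31 for AT3G15450 (adjusted p 0.0992), -0.86 ± 0.30 for IVD (adjusted p 0.0785), -0.49 ± 0.20 for AKINBETA1 (adjusted p 0.149) and -0.48 ± 0.20 for MCCB (adjusted p 0.16), all meaning a smaller or more negative day length difference in cat2. With only the arrays of these 4 groups in the fit, AT3G15450 (adjusted p 0.0168), AKINBETA1 (adjusted p 0.0391) and MCCB (adjusted p 0.0309) passed. Without Col-0 SD2 replicate 3, IVD passed with an interaction of -1.04 and an adjusted p of 0.0384. At day 4 limma called 0 of 5 genes, with 0 at an unadjusted p below 0.05 and 0.862% of probe sets called.

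Between day 2 and day 4 of air, 3 changes were called, for AT3G15450 in cat2 short days, AKINBETA1 in cat2 long days and AT3G15450 in Col-0 long days. In short days AT3G15450 fell in cat2 at SD4 by 1.18 ± 0.22 (0.441-fold of SD2, adjusted p 0.00534), while 0.95% of probe sets were called. In long days its LD4 minus LD2 difference was 0.65 ± 0.22 in cat2, which did not pass the test. AKINBETA1 was higher at LD4 than at LD2 in cat2 by 0.62 ± 0.14 (adjusted p 0.0251), 1 of 5 genes beside 1.7% of probe sets. That call was lost when any 1 of the 6 arrays was left out, with adjusted p of 0.0788, 0.0747 and 0.0609 without cat2 LD4 replicate 1, 2 or 3 and of 0.0582, 0.068 and 0.111 without cat2 LD2 replicate 1, 2 or 3, and it was also lost in a fit of only those arrays (0.0661) and with median centring (0.0569). In Col-0, AT3G15450 was higher at LD4 than at LD2 by 1.01 ± 0.22 (adjusted p 0.0176), 1 of 5 genes beside 1.94% of probe sets, and the adjusted p was 0.082 without LD4 replicate 3, 0.0847 without LD2 replicate 1, 0.0597 without LD2 replicate 2 and 0.284 in a fit of only those arrays. AT4G27450 had the larger difference there, 1.50 ± 0.45, but passed only without Col-0 LD4 replicate 2 (2.02, adjusted p 0.0229), as did AKINBETA1 (0.57, adjusted p 0.042). MCCB passed there without Col-0 LD4 replicate 1 (0.45, adjusted p 0.0415). In Col-0 short days limma called 0 of 5 genes, with 0 at an unadjusted p below 0.05 and 0.0484% of probe sets called.

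The change over time in long days minus that in short days, an interaction added after the data were seen, was called in cat2 for 2 of 5 genes beside 2.82% of probe sets. It was 1.83 ± 0.31 for AT3G15450 (adjusted p 0.00236) and 0.80 ± 0.20 for AKINBETA1 (adjusted p 0.0308). The call of AKINBETA1 was lost without cat2 LD4 replicate 1 (adjusted p 0.0692), without cat2 LD2 replicate 1, 2 or 3 (0.0506, 0.0559 and 0.076), without cat2 SD4 replicate 1 (0.0614) and without cat2 SD2 replicate 2 (0.104), as well as in a fit of only those arrays (0.0514) and with median centring (0.068). In Col-0 the same interaction was 1.17 ± 0.31 for AT3G15450 (adjusted p 0.105), and limma called 0 of 5 genes beside 0.409% of probe sets. An unadjusted p below 0.05 was found for 2 of the 5 and for 2520 of all probe sets. Without Col-0 LD4 replicate 2 the interaction of AT3G15450 in Col-0 was 1.50, with an adjusted p of 0.0092. The genotype difference of the change over time, also added, called 0 of 5 genes in long days, with 0 at an unadjusted p below 0.05 and 0.0615% of probe sets called. In short days it called 0 of 5, beside 0.343% of probe sets. There 2 of the 5 and 3242 of all probe sets had an unadjusted p below 0.05. AT3G15450 had the largest value, -1.02 ± 0.31 with an adjusted p of 0.163. Over the 21 comparisons of a pair of groups, AT3G15450 was called in 11, AKINBETA1 in 9, AT4G27450 in 8, IVD in 2 and MCCB in 0. The share of all probe sets called in these comparisons ran from 0.0132% to 20.2%. The comparisons reuse the same 10 groups and are not independent, and the calls named above as lost without single arrays are included.

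**Figure D2:**
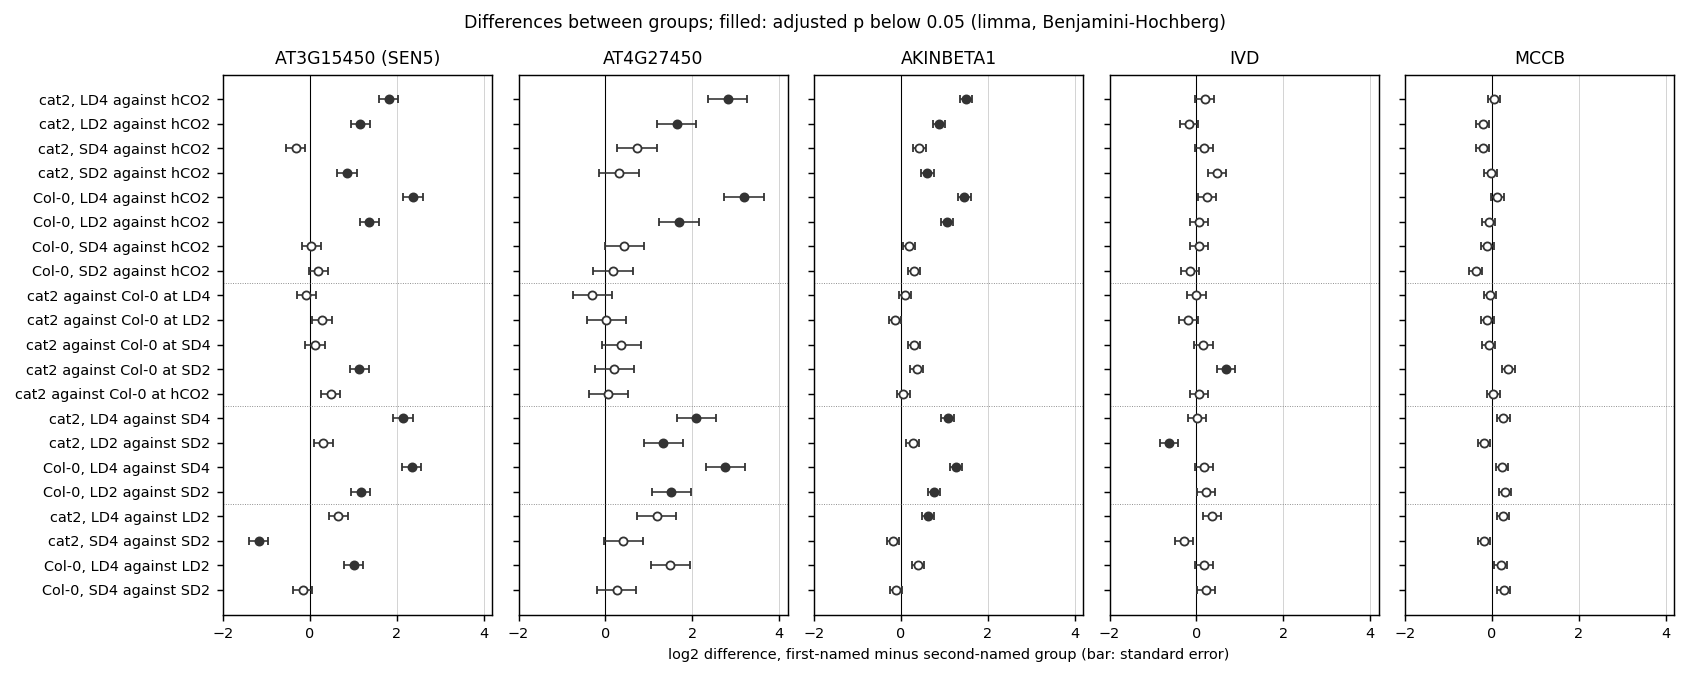
Log2 differences (horizontal axis, bars ± SE) of the 5 genes in the 21 comparisons of a pair of groups, first-named minus second-named group; filled points passed an adjusted p of 0.05 in limma. The filled points of AT3G15450, AT4G27450 and AKINBETA1 lie mostly in the rows that set LD4 or LD2 against hCO2 or short days, AT3G15450 is 1.14 higher in cat2 at SD2, and MCCB has no filled point.

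The other 3 measured members of the SEN5 family had positive differences at LD4 against hCO2 in both genotypes, smaller than those of AT3G15450. AT5G43830 was higher at LD4 than at hCO2 by 0.36 ± 0.09 in cat2 (adjusted p 0.00713) and by 0.54 ± 0.09 in Col-0 (adjusted p 0.000172), and higher at LD4 than at SD4 in Col-0 by 0.59 ± 0.09 (adjusted p 6.53e-05). The cat2 call at LD4 was lost without hCO2 replicate 2 (adjusted p 0.0585) and in a fit of only those arrays (0.101). AT3G22850 rose at LD2 in Col-0 by 0.57 ± 0.12 (adjusted p 0.00444). At LD4 in Col-0 it rose by 0.36 ± 0.12 (adjusted p 0.0457), a call lost without LD4 replicate 1 or 2 (0.264 and 0.0601) or without hCO2 replicate 1, 2 or 3 (0.0914, 0.179 and 0.0508). AILP1 had a difference of 0.45 ± 0.18 in cat2 and 0.50 ± 0.18 in Col-0 at LD4 against hCO2, with adjusted p of 0.102 and 0.0596. None of the 3 was called between cat2 and Col-0 in any of the 5 conditions, and at SD2, where AT3G15450 differed by 1.14, their differences were -0.05 ± 0.18 for AILP1, 0.04 ± 0.09 for AT5G43830 and -0.25 ± 0.12 for AT3G22850.

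Among the other SnRK1 subunits, 2 of 8 listed genes could be read, both beta subunits. AT2G28060 (KINbeta3) was lower in cat2 at SD2, where AKINBETA1 differed by 0.36. Its log2 signals there were 7.59, 7.58 and 7.67 in cat2 and 7.90, 8.00 and 7.95 in Col-0, without overlap, a difference of -0.33 ± 0.09 (adjusted p 0.015). The call was lost without cat2 SD2 replicate 1 (adjusted p 0.0601), cat2 SD2 replicate 2 (0.058) or Col-0 SD2 replicate 2 (0.066). It rose in Col-0 at SD2 against hCO2 by 0.55 ± 0.09 (adjusted p 0.000328), the comparison in which AKINBETA1 differed by 0.30 and was not called. AT2G28060 rose against hCO2 in other groups too. In cat2 it rose by 0.36 ± 0.09 at LD2 (adjusted p 0.00665) and by 0.37 ± 0.09 at SD4 (adjusted p 0.00796). In Col-0 it rose by 0.30 ± 0.09 at LD4 (adjusted p 0.0259). The LD2 call held in every alternative. The SD4 call was lost without SD4 replicate 2 (0.0747), and the LD4 call without any 1 of 4 of the 6 arrays. AT4G16360 (KINbeta2) stayed between 8.89 and 9.25 on all arrays and passed the test in none of the comparisons made.

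Of 18 further genes listed for branched-chain amino acid breakdown, 11 were measured, and MCCA, the partner subunit of MCCB, had larger differences than MCCB and IVD at SD2 and LD4. At SD2 the log2 signals of MCCA were 7.89, 7.62 and 7.46 in cat2 and 6.81, 6.72 and 6.94 in Col-0. At SD4 they were 7.60, 7.22 and 7.50 in cat2 and 7.20, 6.99 and 6.79 in Col-0. The genotypes did not overlap in either, and at SD2 MCCA was higher in cat2 by 0.84 ± 0.15 (1.78-fold, adjusted p 0.000583), a call kept in every alternative tried. The difference at SD4 was not called. At LD4 the signals were 7.76, 7.84 and 7.75 in cat2 and 7.26, 7.86 and 7.98 in Col-0, overlapping between genotypes. At LD2 they were 7.39, 7.08 and 7.29 in cat2 and 7.40, 7.35 and 7.51 in Col-0. At hCO2 they were 7.00, 6.91 and 7.18 in cat2 and 7.03, 7.05 and 6.73 in Col-0. Against hCO2, MCCA rose at LD4 by 0.75 ± 0.15 in cat2 (adjusted p 0.00137) and by 0.76 ± 0.15 in Col-0 (adjusted p 0.00108), where MCCB differed by 0.04 and 0.12; the Col-0 call was lost in a fit of only those arrays (0.0753). It also rose in cat2 at SD2 against hCO2, by 0.63 ± 0.15 (adjusted p 0.00504). MGL is methionine gamma-lyase, which acts on methionine, and it is counted among the 11 only because the list used holds it. MGL rose against hCO2 in short days in both genotypes. In Col-0 it rose by 0.97 ± 0.21 at SD4 (adjusted p 0.0119) and by 0.71 ± 0.21 at SD2 (adjusted p 0.0189). In cat2 it rose by 0.75 ± 0.21 at SD4 (adjusted p 0.02) and by 0.63 ± 0.21 at SD2 (adjusted p 0.0382). MGL was lower at LD2 than at SD2 in Col-0, by -0.69 ± 0.21 (adjusted p 0.0332). Each of these MGL calls was lost without single arrays.

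At SD2 between cat2 and Col-0, 2 of the 11 genes were higher and 0 were lower where 14.2% of all probe sets were called, and their median difference was 0.22 beside -0.04 over all probe sets. Beside MCCA the other was ALDH6B2, an aldehyde dehydrogenase of valine breakdown, by 0.23 ± 0.07 (adjusted p 0.0265), a call lost without any 1 of the 6 arrays, at adjusted p of 0.0965, 0.0546 and 0.0572 without cat2 SD2 replicate 1, 2 or 3 and of 0.0513, 0.0706 and 0.0764 without Col-0 SD2 replicate 1, 2 or 3. ETFBETA, a subunit of the electron transfer flavoprotein that takes electrons from IVD, differed by 0.46 ± 0.16 with an adjusted p of 0.0534. In cat2 ETFBETA was lower at LD2 than at SD2 by -0.78 ± 0.16 (adjusted p 0.00109), as IVD was. Its log2 signals were 8.52, 8.21 and 8.63 at LD2 and 9.45, 9.36 and 8.90 at SD2 in cat2, without overlap. AT4G20930 was also lower at LD2 in cat2, by -0.32 ± 0.09 (adjusted p 0.0176), and its call was lost without SD2 replicate 1 (0.0701), SD2 replicate 2 (0.12) or LD2 replicate 2 (0.117) of cat2. Against hCO2, ETFBETA fell in cat2 at LD2 by 0.48 ± 0.16 (adjusted p 0.0341). That call was lost without any 1 of 5 of the 6 arrays.

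At LD4 against hCO2, 4 of the 11 genes rose in cat2 and 3 in Col-0, and 0 fell, where 14.7% of all probe sets were called in cat2 and 16.3% in Col-0, with medians of 0.23 in cat2 and 0.39 in Col-0. AT2G26800 rose by 0.42 ± 0.09 in cat2 (adjusted p 0.00169) and by 0.41 ± 0.09 in Col-0 (adjusted p 0.00171), with 0.0721 and 0.069 in fits of only the arrays of each comparison. AT5G09300 rose in cat2 by 0.76 ± 0.22 (adjusted p 0.0208) and ALDH6B2 by 0.20 ± 0.07 (adjusted p 0.0444), and in Col-0 ETFALPHA, the other subunit of the flavoprotein, rose by 0.43 ± 0.14 (adjusted p 0.034). Each of the last 3 calls was lost without single arrays. For AT5G09300 the adjusted p was 0.0945 and 0.0523 without cat2 LD4 replicate 2 or 3 and 0.0743 and 0.115 without cat2 hCO2 replicate 1 or 3. For ALDH6B2 it was 0.187 and 0.132 without cat2 LD4 replicate 1 or 2 and 0.187 and 0.222 without cat2 hCO2 replicate 1 or 2. For ETFALPHA it was 0.138 and 0.101 without Col-0 LD4 replicate 1 or 3 and 0.13 and 0.16 without Col-0 hCO2 replicate 1 or 2. Between LD4 and SD4, 0 of the 11 genes were called in cat2 beside 11.8% of all probe sets, and in Col-0 3 were higher at LD4 beside 13.5%: MCCA by 0.71 ± 0.15 (adjusted p 0.00235), AT2G26800 by 0.61 ± 0.09 (adjusted p 3.13e-05) and ETFQO, the enzyme that passes electrons from the flavoprotein on to the respiratory chain, by 0.41 ± 0.11 (adjusted p 0.0132). The MCCA call was lost in a fit of only those arrays (0.0994). The ETFQO call was lost without Col-0 LD4 replicate 2 (0.0901), SD4 replicate 2 (0.0604) or SD4 replicate 3 (0.0644).

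**Figure D3:**
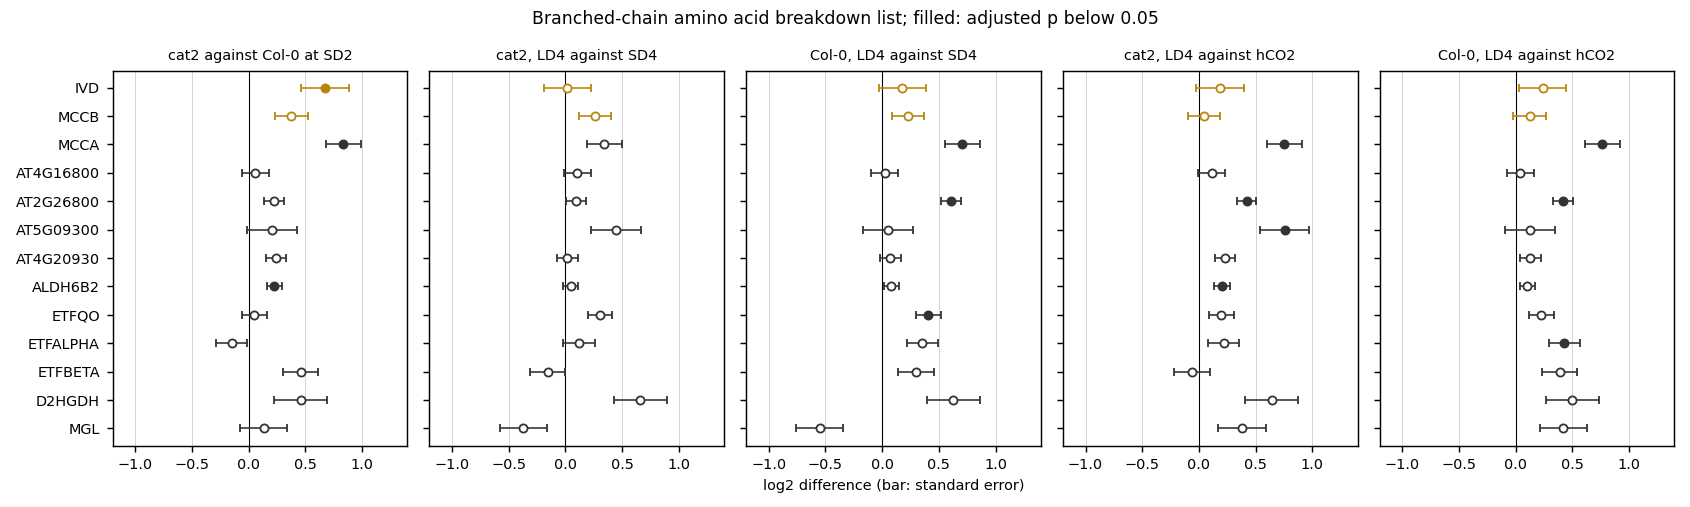
Log2 differences (horizontal axis, bars ± SE) of IVD and MCCB (gold) and the 11 other measured genes (black) in 5 comparisons. The 11 are those on the list used for branched-chain amino acid breakdown, which also holds MGL, an enzyme of methionine. Filled points passed an adjusted p of 0.05 in limma. MCCA is filled in 4 of the 5 panels, while MCCB is filled in 0 and IVD in 1, cat2 against Col-0 at SD2.

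Other genes listed as raised by starvation were few on the named probe sets, 4 of 23. AT5G57655 followed AT3G15450: at SD2 its log2 signals were 7.97, 7.75 and 7.87 in cat2 and 7.32, 7.25 and 7.41 in Col-0, and at LD4 they were 8.42, 8.37 and 8.78 in cat2 and 8.43, 8.55 and 8.60 in Col-0. It rose at LD4 against hCO2 by 1.08 ± 0.14 in cat2 (adjusted p 9.68e-06) and by 0.89 ± 0.14 in Col-0 (adjusted p 9.02e-05). It was higher at LD4 than at SD4 by 0.91 ± 0.14 in cat2 (adjusted p 5.39e-05) and by 1.07 ± 0.14 in Col-0 (adjusted p 9.25e-06). At SD2 it was higher in cat2 by 0.54 ± 0.14 (adjusted p 0.0114), a call lost without cat2 SD2 replicate 1 (0.0641) or Col-0 SD2 replicate 2 (0.0539). AT4G33150 (LKR/SDH, an enzyme of lysine breakdown) was higher at LD4 than at SD4 in cat2 by 0.85 ± 0.21 (adjusted p 0.00718), lost without cat2 SD4 replicate 2 (0.0542). ATL8 was called against hCO2 in no condition. In cat2 it was higher at LD4 than at SD4 by 0.55 ± 0.15 (adjusted p 0.0177). At LD2 it was higher than at SD2 in cat2 by 0.53 ± 0.15 (adjusted p 0.0186). These ATL8 calls were lost without single arrays. BZIP53, a transcription factor of amino acid metabolism, rose at LD2 against hCO2 by 0.38 ± 0.09 in cat2 (adjusted p 0.00318) and by 0.60 ± 0.09 in Col-0 (adjusted p 0.000105). It rose in short days as well, at SD2 by 0.33 ± 0.09 in cat2 (adjusted p 0.00932) and by 0.44 ± 0.09 in Col-0 (adjusted p 0.00148), and the cat2 call was lost without hCO2 replicate 1 (0.0541). At SD4 in cat2 it rose by 0.27 ± 0.09 (adjusted p 0.0471), lost without SD4 replicate 1 or 2 (0.0729 and 0.233) or hCO2 replicate 1 or 2 (0.179 and 0.132).

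Genes of the sugar response and of starch breakdown were lower than at hCO2 in the long-day comparisons in which they were called. APL3, a subunit of the enzyme that commits carbon to starch and the only 1 measured of 10 genes listed as raised by sugar, had log2 signals at LD4 of 7.12, 6.81 and 6.98 in cat2, against 8.40, 8.08 and 8.68 in cat2 at hCO2. It fell there by 1.41 ± 0.27 (0.375-fold, adjusted p 0.000769), without overlap, and in Col-0 the difference was -0.58 ± 0.27 (adjusted p 0.155). Of starch breakdown 2 of 11 listed genes were measured. DPE1, which recycles short glucans inside the chloroplast, fell at LD2 against hCO2 by 0.53 ± 0.12 in cat2 (adjusted p 0.00313). In Col-0 it fell by 0.41 ± 0.12 (adjusted p 0.0294), a call lost without any 1 of 3 of the 6 arrays. At the same CO2, DPE1 was lower in long than in short days. The differences in cat2 were -0.43 ± 0.12 at day 4 (adjusted p 0.0179) and -0.53 ± 0.12 at day 2 (adjusted p 0.00305). In Col-0 they were -0.50 ± 0.12 and -0.68 ± 0.12 (adjusted p 0.00598 and 0.000369). The day 4 calls were lost without single arrays. PWD, a kinase that phosphorylates starch before its breakdown, fell at LD2 against hCO2 by 0.89 ± 0.20 in Col-0 (adjusted p 0.00464). In cat2 it fell by 0.68 ± 0.20 (adjusted p 0.0159), a call lost without any 1 of 3 of the 6 arrays. PWD also fell in short days in Col-0, at SD2 by 0.55 ± 0.20 (adjusted p 0.0497), a call lost without any 1 of the 6 arrays. It was lower at LD2 than at SD2 in cat2 by -0.93 ± 0.20 (adjusted p 0.00158). PWD differed between genotypes at SD2 as well, higher in cat2 by 0.74 ± 0.20 (adjusted p 0.0127), a call lost without cat2 SD2 replicate 1 (0.0597) or Col-0 SD2 replicate 2 (0.0514).

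Ranked by group mean, AT3G15450 ran from Col-0 LD4 (10.54 ± 0.62) and cat2 LD4 (10.46 ± 0.38) down through cat2 LD2 (9.81 ± 0.05), Col-0 LD2 (9.54 ± 0.22) and cat2 SD2 (9.50 ± 0.21) to cat2 hCO2 (8.65 ± 0.14), and the 4 lowest groups were Col-0 SD2, cat2 SD4, Col-0 SD4 and Col-0 hCO2 (8.17 ± 0.22; SD, n = 3 each). Neighbours in this order overlapped between the LD4 groups, between Col-0 LD2 and cat2 SD2, and throughout from cat2 hCO2 down. For AT4G27450 the only gap without overlap between neighbours lay below the LD4 groups, which averaged 8.86 ± 1.03 in Col-0 and 8.55 ± 0.43 in cat2. AKINBETA1 fell into steps, with cat2 LD4 (8.35 ± 0.09) and Col-0 LD4 (8.25 ± 0.31) above Col-0 LD2 (7.86 ± 0.02), that above cat2 LD2 (7.73 ± 0.07), and that above cat2 SD2 (7.46 ± 0.17); from there to Col-0 hCO2 (6.80 ± 0.17) each group overlapped the next. IVD was highest in cat2 SD2 (7.59 ± 0.25) and lowest in Col-0 SD2 (6.92 ± 0.34), and all its neighbours overlapped. MCCB was highest in Col-0 LD4 (8.82 ± 0.43), and only Col-0 SD2, the lowest (8.32 ± 0.03), stood clear of its neighbour.

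Over the 10 group means, Pearson's r was 0.90 between AT3G15450 and AT4G27450, 0.94 between AT3G15450 and AKINBETA1 and 0.96 between AT4G27450 and AKINBETA1, and 0.59 between IVD and MCCB. These points share arrays and their normalization, so the values describe likeness only. With group means removed, over 30 arrays, r was 0.54 (Spearman's rho 0.45) between AT3G15450 and AKINBETA1, 0.42 (0.27) between AT3G15450 and AT4G27450, and 0.44 (0.35) between AT4G27450 and AKINBETA1. Leaving out the 2 arrays farthest from the median of the first-named gene brought these to 0.33, 0.08 and 0.25, so that the relation of AT3G15450 with AT4G27450 within groups rests on those arrays. Within groups, AKINBETA1 and MCCB were at -0.46 (-0.42), and IVD and MCCB were at 0.28 (0.25). Leaving out 2 arrays in the same way brought r to -0.31 and 0.24.

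The genes most like each member over the 10 group means were taken from 1291 single-gene probe sets with a mean log2 of at least 5 and a span of at least 1 between group means. For AT3G15450 they were AT5G24490 (r = 0.97), AT5G57655 (0.94) and AKINBETA1 (0.94). For AKINBETA1 they were AT5G24490 (0.97), AT3G07350 (0.96) and CP5 (0.96), so AT5G24490 came first for both. For AT4G27450 they were AT4G14930 (0.98), AT1G72820 (0.96) and AT5G59080 (0.96). For IVD they were AT4G30490 (0.90), AT5G18130 (0.89) and AT4G15420 (0.88), and for MCCB AT1G54460 (0.97), AT5G27950 (0.96) and AT2G38800 (0.95).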

How the data were processed

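RNA of rosette leaves was hybridised to 30 Affymetrix ATH1 arrays. The submitters' processing notes name RMA and affy, and the deposited values are log2 signals; versions and genome build are not given in the sources used here. The values were used as deposited. After 64 control probe sets were set aside, 22746 of 22810 were tested. The probe annotation gives 1 gene for 13513 of them, several for 503, and does not list 8730; genes were named from the first kind only. With limma 3.58.1 under R 4.3.3, all 30 arrays entered 1 linear model of 10 group means, and Benjamini-Hochberg adjustment was done separately within each of 27 comparisons and 4 added later. A fold is 2 to the power of the log2 difference. The number of arrays, 3 in a group, limits the precision. The members and gene lists were chosen with earlier results of these data known. Named were the 5 members, list genes called in the comparisons the text turns on, and the 3 genes most like each member. Tried as alternatives were median centring, a filter at a mean log2 of 5, fits restricted to the arrays compared, the replicate number as a block, quantile normalization, and leaving out single arrays. The fit was tested on simulated data. Same-numbered arrays deviated together (every correlation above 0.1) in 2 of 21 comparisons, cat2 against Col-0 at LD4 (0.44, 0.45 and 0.22) and at SD4 (0.62, 0.31 and 0.63); the paired fit changed 0 member calls there.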

Additional observations from a re-analysis of the deposited data

Results flagged for a closer look

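In these results the response of 1 group differed from that of another by a test of the difference itself (limma, Benjamini-Hochberg). Day length by time in cat2, a term added after the data were seen, was 1.83 for AT3G15450 (adjusted p 0.00236) and 0.80 for AKINBETA1 (adjusted p 0.0308). The AT3G15450 call held without any single array. The AKINBETA1 call was lost in 6 of 12 cases with 1 array left out. Genotype by day length at day 2 was -1.0015 ± 0.21 for MCCA (adjusted p 0.0049) and 0.53 ± 0.13 for AT2G28060 (adjusted p 0.0125), and both calls held without any single array. The same interaction was -0.72 ± 0.22 for ETFBETA (adjusted p 0.0477) and -0.63 ± 0.20 for AT5G57655 (adjusted p 0.048), calls lost in 8 and 12 of the 12 cases with 1 array left out. Genotype by air at SD2 was 0.74 ± 0.21 for MCCA (adjusted p 0.0407), 0.73 ± 0.20 for AT5G57655 (adjusted p 0.0274) and 0.45 ± 0.12 for AT2G26800 (adjusted p 0.0292), lost in 8, 6 and 7 of 12 such cases. For AT2G26800, genotype by air at SD4 was 0.52 ± 0.12 (adjusted p 0.0375) and genotype by day length at day 4 was -0.51 ± 0.12 (adjusted p 0.0434), lost in 9 and 10 of 12.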

How the results depend on the processing

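Of 155 values of the 5 genes, 32 passed the test, 23 of these in every alternative, and 0 changed direction while called. Quantile normalization changed 0 of 155 calls. The number of the 5 genes called moved by over 1.5 times, or to or from 0, in the following cases, and the cause was not tested. With the replicate block it was 1 instead of 2 for LD2 against SD2 in cat2 (AT4G27450, adjusted p 0.0539) and 1 instead of 0 for genotype by day length at day 2 (IVD, adjusted p 0.0495); the replicate block changed no other call of the 5 genes. With only the arrays compared it was 1 instead of 0 for SD2 against hCO2 in Col-0, 0 instead of 1 for LD4 against LD2 in cat2 and in Col-0, 3 instead of 0 for genotype by day length at day 2, and 1 instead of 2 for day length by time in cat2. MCCB was also added there for LD2 against SD2 in Col-0 (adjusted p 0.0362) and for cat2 against Col-0 at SD2 (0.0354), both smaller moves. Median centring gave 0 instead of 1 for LD4 against LD2 in cat2 and 1 instead of 2 for day length by time in cat2. The filter at a mean log2 of 5 gave 1 instead of 0 for SD4 against hCO2 in cat2. Leaving out single arrays gave 0 to 1 for SD4 against hCO2 in cat2, 1 to 2 for cat2 against Col-0 at SD2, 0 to 1 for LD2 against SD2 in cat2, 0 in all 6 cases for LD4 against LD2 in cat2, 0 to 3 for LD4 against LD2 in Col-0, 0 to 1 for genotype by day length at day 2, 1 to 2 for day length by time in cat2 and 0 to 1 for day length by time in Col-0; smaller moves were 2 to 3 for LD2 against hCO2 in each genotype, SD2 against hCO2 in cat2 and LD2 against SD2 in Col-0, and 3 to 4 for LD4 against hCO2 and LD4 against SD4 in Col-0. Of 84 calls of the other pathway genes, 31 held in every alternative. Calls of AT4G27450 at day 2 are limited by its scatter between 3 arrays, and most pathway genes listed have no named probe set.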
